A study of Mus musculus with 8 samples.

Results

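The Dlx, Lhx, Irx, Six-family, Nkx2, Nkx3 and Nkx6 genes encode lineage homeobox factors that lie outside the Hox clusters. They were chosen by symbol from the autosomal protein-coding genes of the mm10 annotation, which gave 38 of 20807 genes, namely 6 Dlx, 8 Lhx, 6 Irx, 6 Six-family and 12 Nkx genes of the Nkx2, Nkx3 and Nkx6 groups. Each gene was taken with 20 kb on each side, and it was asked which of them are open and which closed in the chromatin of granule neuron progenitors (GNPs), the dividing precursors of cerebellar granule neurons. The assay was ATAC-seq on GNPs from mouse pups of postnatal day 7, and it reads open chromatin by where Tn5 transposase can insert its adapters.

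Homeobox factors bind DNA through a homeodomain and fix the identity of regions and cell types in the embryo. Dlx factors act in forebrain interneurons and the jaw, Lhx factors in motor neurons, the pituitary and Purkinje cells, Irx factors in neural and heart patterning, and Six-family factors in the eye, muscle, ear and kidney. Nkx2, Nkx3 and Nkx6 factors act in the ventral neural tube, the heart, gut, lung, pancreas and skeleton. Genes of this kind often have CpG-rich start sites, and in cells that do not use them they are commonly held silent by Polycomb proteins. Granule cells descend from the rhombic lip, and a different set of factors, such as Atoh1, Zic1 and Pax6, marks their lineage.

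The groups were 3 wild-type (WT) libraries, 3 mutant libraries and 2 heterozygous (het) libraries. Per the study's methods, WT mice carried Chd7 f/f without Cre, het mice were Atoh1-Cre::Chd7 f/+ and mutant mice Atoh1-Cre::Chd7 f/f. Chd7 encodes an ATP-dependent chromatin remodeller, and Atoh1-Cre acts in the rhombic lip lineage, where the study holds it to be probably less efficient in the posterior lobe. The labels give the strain as C56Bl6/J, the methods as C57BL/6N. The WT and mutant replicates are called technical in the methods, and the number of animals per library is not given in the sources used here.

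Each of the 3 deposited peak lists had been called on the pooled libraries of its group, so replicate errors cannot be given and no comparison of genotypes carries a test. The WT, het and mutant lists held 149637, 104396 and 170362 autosomal peaks from 50394313, 30923002 and 51030229 tags. Het peaks came from another aligner and other calling settings, so het is compared by presence and rank alone, and genotype and processing cannot be told apart there. The tag size was 107 bp in WT and 76 bp in mutant, and its part in the results was not tested. Peak strength is reported as a rank within the list, meaning the share of the list, in percent, that has a −log10 q no higher than the peak in question. For WT against mutant the pileup, which is the number of extended tags at the summit, was scaled to 1000000 tags and is called scaled pileup here. The promoter of the targeted gene Chd7 kept a peak in every list, with ranks of 89.4 (WT), 81.8 (het) and 86.3 (mutant), which by itself does not check the genotype. GNPs were isolated on a percoll gradient, and a peak in such a bulk sample does not tell whether few cells are fully open or many cells slightly.

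The sequences that follow are examples of start sites of members with and without a WT promoter peak. They are the bases before the RefSeq start (GRCm38.p6, the build of mm10) that lie in no exon. Six4 and Irx2 had strong WT promoter peaks. Lhx6 and Nkx2-9 had no WT promoter peak, but both had promoter peaks in het and mutant (ranks further on). CpG dinucleotides are in capitals.
Six4 upstream, chr12:73113457-73113675, minus strand: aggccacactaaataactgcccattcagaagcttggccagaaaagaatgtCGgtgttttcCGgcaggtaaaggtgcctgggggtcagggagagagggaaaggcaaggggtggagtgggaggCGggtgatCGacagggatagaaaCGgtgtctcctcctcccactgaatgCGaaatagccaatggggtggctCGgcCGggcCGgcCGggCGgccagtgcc
Irx2 upstream, chr13:72628570-72628819, plus strand: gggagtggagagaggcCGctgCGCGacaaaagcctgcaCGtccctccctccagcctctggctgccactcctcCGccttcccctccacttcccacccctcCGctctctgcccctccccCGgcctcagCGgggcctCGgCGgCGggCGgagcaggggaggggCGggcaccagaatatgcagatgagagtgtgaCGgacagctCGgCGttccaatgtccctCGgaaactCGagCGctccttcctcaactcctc
Lhx6 upstream, chr2:36105409-36105658, minus strand: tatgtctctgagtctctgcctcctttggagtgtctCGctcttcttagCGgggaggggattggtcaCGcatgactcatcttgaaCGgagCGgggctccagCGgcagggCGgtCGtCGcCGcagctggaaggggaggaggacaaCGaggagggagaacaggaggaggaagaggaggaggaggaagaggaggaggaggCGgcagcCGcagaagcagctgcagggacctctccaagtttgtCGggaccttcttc
Nkx2-9 upstream, chr12:56613285-56613534, minus strand: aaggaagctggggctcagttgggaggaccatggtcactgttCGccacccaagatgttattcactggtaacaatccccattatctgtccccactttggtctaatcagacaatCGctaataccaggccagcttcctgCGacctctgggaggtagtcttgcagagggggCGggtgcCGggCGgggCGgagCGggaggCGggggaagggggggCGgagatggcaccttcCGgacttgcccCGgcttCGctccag
The Six4 stretch of 219 bases held 11 CpG and the Irx2 stretch of 250 bases held 19. The Lhx6 stretch of 250 bases held 14 CpG and the Nkx2-9 stretch of 250 bases held 13, both between the counts of the open examples shown. Stretches not shown lay further apart. Lhx2, open in WT, held 25 CpG in 250 bases, and Nkx2-5, without a WT promoter peak, held 5 in 207 bases. RefSeq promoter entries were matched for 26 of the 38 members. CpG content was therefore counted for all 38 in the mm10 genome, within 500 bases on each side of the most CpG-rich annotated start. The median was 65.0 CpG for the members and 50 for all genes. Members with a WT promoter peak had a median of 72 (39 to 124, n = 31) and members without one a median of 48.0 (20 to 76, n = 7). Over all genes the same medians were 65.0 with a peak and 9 without one, so the closed members had a higher median than closed genes in general. Nkx6-3 with 20 CpG and Nkx2-6 with 27 were the lowest members. Among the 31 open members the correlation of CpG count with promoter rank was weak, with a Spearman coefficient of 0.23, the same value as over all open genes. These points share libraries and base composition, and the coefficient is a description across genes.

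Most members were open at a start site in WT GNPs. A promoter counted as open when a peak overlapped the 1 kb on either side of any annotated protein-coding start. In WT, 31 of 38 members were open (81.6%, Wilson 95% interval 66.6 to 90.8%), against 70.2% of all autosomal protein-coding genes. In het, 29 members were open (76.3%, 60.8 to 87.0%), against 68.2% of all genes. In mutant, 33 members were open (86.8%, 72.7 to 94.2%), against 71.0% of all genes. The background share lay inside the members' interval in WT and het and just below it in mutant. These intervals cover counting over genes only.

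The promoter peaks of the open members were weak beside those of all genes, as were those of Hox genes and of other lineage homeobox factors (values further on). The median rank of the 31 WT promoter peaks was 62.0, against 91.2 for the 14598 open promoters of all genes. Only 4 of the 31 reached a rank of 90 (12.9%), against 54.1% of all open promoters. In het 2 of 29 did, against 47.0%, and in mutant 2 of 33, against 58.0%. The median fold enrichment, the ratio of pileup to local background, was 4.84 in WT for the members and 9.02 for all genes. The median scaled pileup was 0.615 against 1.03, and the median width was 435 bp against 799 bp. The local background implied by pileup and fold enrichment was 0.100 on the same scale for the members and 0.0893 for all genes. When peaks were ranked by pileup in place of −log10 q, a choice made after the data were seen, 7 WT promoters reached 90 (22.6%), against 58.0% of all open promoters. On that scale 3 het promoters (10.3%, background 49.7%) and 6 mutant promoters (18.2%, background 63.1%) did so.

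**Figure D1:**
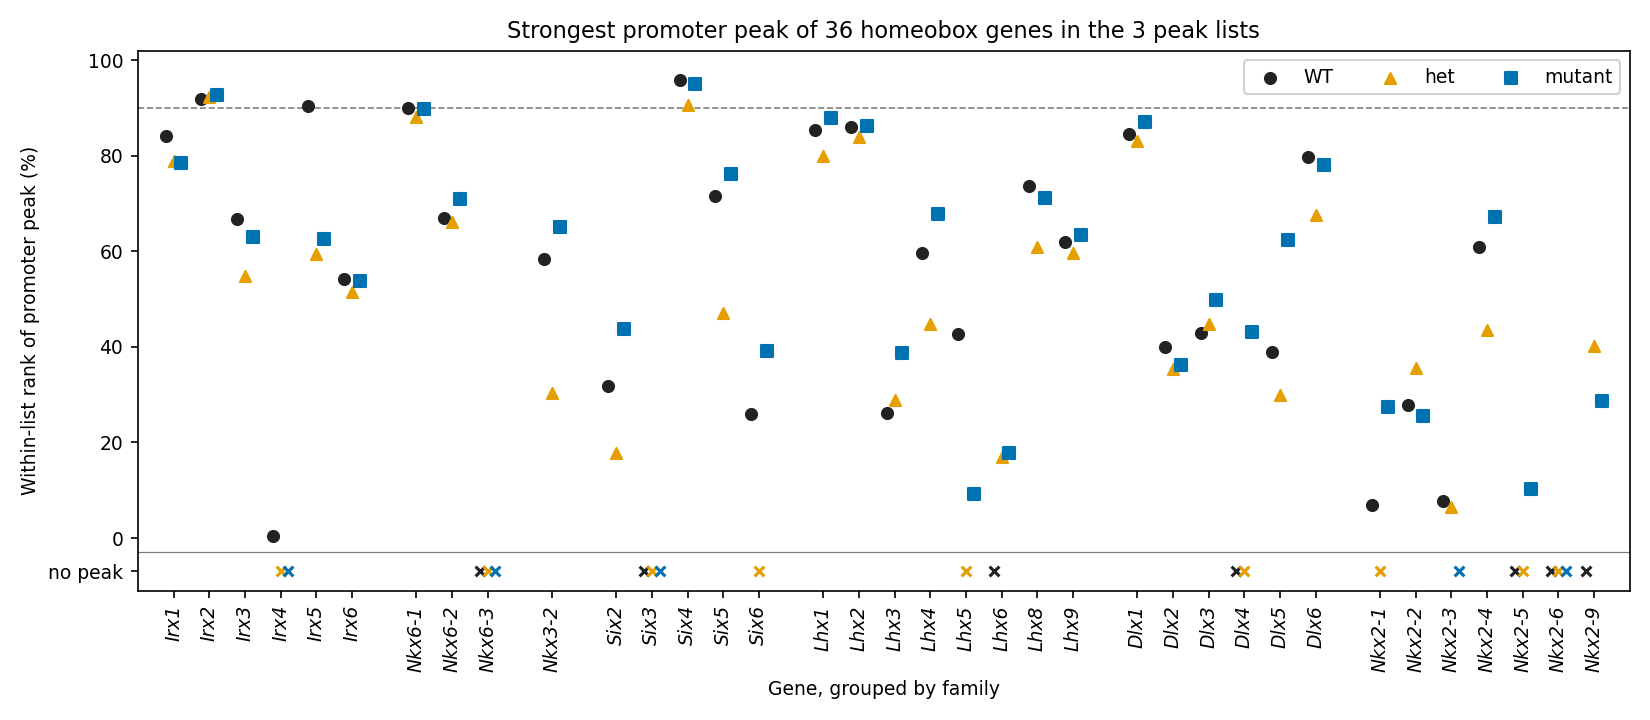
Within-list rank (in percent, y axis) of the strongest promoter peak of 36 members, grouped by family, in the WT (circles), het (triangles) and mutant (squares) lists, with crosses for members that have no promoter peak in a list. The dashed line marks a rank of 90, which of the genes plotted only Six4, Irx2 and Irx5 pass in WT, and the Nkx2 genes hold more crosses than any other family.

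The share of open promoters varied by family, with wide intervals. Irx genes, which pattern neural tissue and the heart, were open in WT at 6 of 6 promoters with a median rank of 75.4. Lhx genes were open at 7 of 8 with a median of 62.0, and Dlx genes at 5 of 6 with a median of 42.9. Six-family genes were open at 5 of 6 with a median of 71.7, and Nkx6 genes at 2 of 3 with ranks of 66.9 for Nkx6-2 and just under 90 for Nkx6-1. Nkx2 genes, which include the heart factor Nkx2-5 and the thyroid, lung and ventral forebrain factor Nkx2-1, were the least open in WT, at 4 of 7 with a median rank of 17.8. With 3 to 8 genes in each of these families, the Wilson intervals of these shares overlapped, reaching 25 to 84.2% for Nkx2 and 61.0 to 100% for Irx. The order of families differed in mutant, where Dlx genes were open at 6 of 6 and Lhx genes at 8 of 8. There Irx genes were open at 5 of 6, Nkx2 genes at 5 of 7 and Nkx6 genes at 2 of 3.

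Six4, a factor of muscle and ear development, had the highest promoter rank of all members in WT and mutant. Its promoter ranked 95.9 in WT, 90.7 in het and 95 in the mutant list. The scaled pileup was 1.33 in WT and 1.23 in mutant, a log2 difference of −0.11. The only other WT peak in its window lay at the start of Mnat1 and ranked 89.2. Irx2 ranked above Six4 in het and had the larger scaled pileup in WT and mutant. Its promoter stood at 91.9 in WT, 92.3 in het and 92.7 in mutant, with a scaled pileup of 1.47 in WT and 1.51 in mutant (log2 difference 0.04). The start of the non-coding gene Gm20554 lies within 1 kb of both the Irx2 start and this peak, so the peak cannot be assigned to Irx2 alone. Both start regions ranked above 90 in every list, and the Irx2 sequence shown at the start lies wholly, the Six4 sequence partly, inside the WT peak.

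Irx5 needs a closer reading. The peak that gave its WT rank of 90.5, chr8:92355611-92356629, had its summit 1.44 kb upstream of the start, beside the start of the long non-coding RNA Crnde, and touched the 1 kb window only at its edge. The matching peaks ranked 92.1 in het and 90.6 in mutant but fell just outside that window. The log2 difference between mutant and WT at this upstream site was −0.10. The peak at the Irx5 start itself ranked 79.2 in WT, 59.4 in het and 62.6 in mutant, with a log2 difference of −0.49. So the drop from 90.5 to 62.6 in the plot of promoter ranks compares separate peaks. Inside the gene, the strongest site lay 4.43 kb from the start and ranked 48.5 in WT and 72 in mutant. Counting a promoter peak by its summit, a choice made after the data were seen, left 3 members at a rank of 90 or more in WT.

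Among the remaining open members, Nkx6-1, a factor of motor neurons and beta cells, ranked 88.2 in het and 89.9 in mutant. Lhx2, which acts in the cortex and eye, ranked 86.0 in WT, 83.9 in het and 86.2 in mutant. Lhx1, a factor of Purkinje cells, ranked 85.4, 80 and 87.9 in the same order. These start sites kept a similar place in every list. Dlx1, an interneuron factor, ranked 84.6, 83.2 and 87.1, and its neighbour Dlx2 only 40, 35.4 and 36.3, although their windows overlap and their bodies lie 9.43 kb apart. Irx1 ranked 84.1, 79.0 and 78.6. Lhx9, expressed in early rhombic lip derivatives, ranked 62.0, 59.7 and 63.4. At Lhx1, Lhx3, Lhx5, Lhx8, Irx3 and Nkx2-1 a non-coding start also lies within 1 kb of the start and of a WT promoter peak. Such peaks cannot be assigned to the member alone.

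The middle and lower ranks held the rest of the open members. Dlx6, the partner of Dlx5 in the jaw and forebrain, ranked 79.7 in WT, 67.7 in het and 78.1 in mutant. In the same order of lists, Dlx3, of skin and teeth, ranked 42.9, 44.8 and 49.8. Lhx8, of forebrain cholinergic neurons, ranked 73.7, 60.9 and 71.2, and Lhx4 ranked 59.6, 44.8 and 67.9. The related pituitary factor Lhx3 was weaker, with 26.2, 28.9 and 38.8. In the Irx cluster of chromosome 8, Irx3 ranked 66.8, 54.8 and 63.1 and Irx6 54.2, 51.6 and 53.9, each by its strongest promoter peak. Six5, whose window holds the Dmwd start, ranked 71.7, 47.2 and 76.2, while the kidney factor Six2 ranked 31.8, 17.9 and 43.7. The Six2 values come from separate peaks: the WT peak of rank 31.8 had no het or mutant partner, and the WT peak at the site marked in het and mutant ranked 17.9. The strongest WT peak also differed from the strongest het and mutant peaks at Dlx6 and Irx3, from the het peak at Lhx3 and Nkx3-2, and from the mutant peak at Lhx9. The eye factor Six6 ranked 25.9 in WT and 39.2 in mutant and had no het promoter peak. A coding start of 4930447C04Rik lies within 1 kb of the Six6 promoter peak, so that peak cannot be assigned to Six6 alone. Nkx3-2, of cartilage, ranked 58.4, 30.4 and 65.2, and Nkx6-2, of oligodendrocytes, 66.9, 66.2 and 70.9. Among Nkx2 genes, Nkx2-4 was highest with 61.0, 43.6 and 67.2. Nkx2-2, of the ventral neural tube, ranked 27.8, 35.5 and 25.5, and Nkx2-1 ranked 7.01 in WT and 27.5 in mutant with no het promoter peak. Irx4, Lhx5, Six6 and Nkx2-1 had a promoter peak in WT and none in het, and ranked at most 42.8 in WT. The share of all genes with this pattern was not counted, and the het list is the shortest, so no meaning is drawn from it.

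Start sites without a peak were few. Six3, a factor of the forebrain and eye, Nkx2-6, of the pharynx, and Nkx6-3, of the stomach, had no promoter peak in any of the 3 lists, against a background of 27.3% of all genes. A peak in all 3 lists was seen at 26 of the 38 members, and the background was 67.0%. None of the 3 genes without one was free of peaks in its window. The strongest Six3 site lay 24.9 kb downstream of the nearest start and ranked 78.1 in the WT list, 73.1 in het and 80 in mutant. The strongest site in the Nkx6-3 window lay 3.49 kb upstream, inside Ank1 and at the start of the antisense RNA Gm15816, and ranked 85.1 in the WT list, 77.2 in het and 92.7 in mutant. The strongest site near Nkx2-6 itself ranked 74.5 in WT, while the overlapping mutant peak ranked 51.5.

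No member was without any peak in its window in WT or mutant, against 9.88% and 9.38% of all genes. In het only Nkx2-5 had none (2.63% of the members, against 12.8% of all genes). Nkx2-5, the heart factor, came closest to a fully closed locus. Its window held 1 WT peak, of rank 35.0 and 5 kb upstream, and 2 mutant peaks, of ranks 10.3 and 1, and no peak was shared between the lists.

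**Figure D2:**
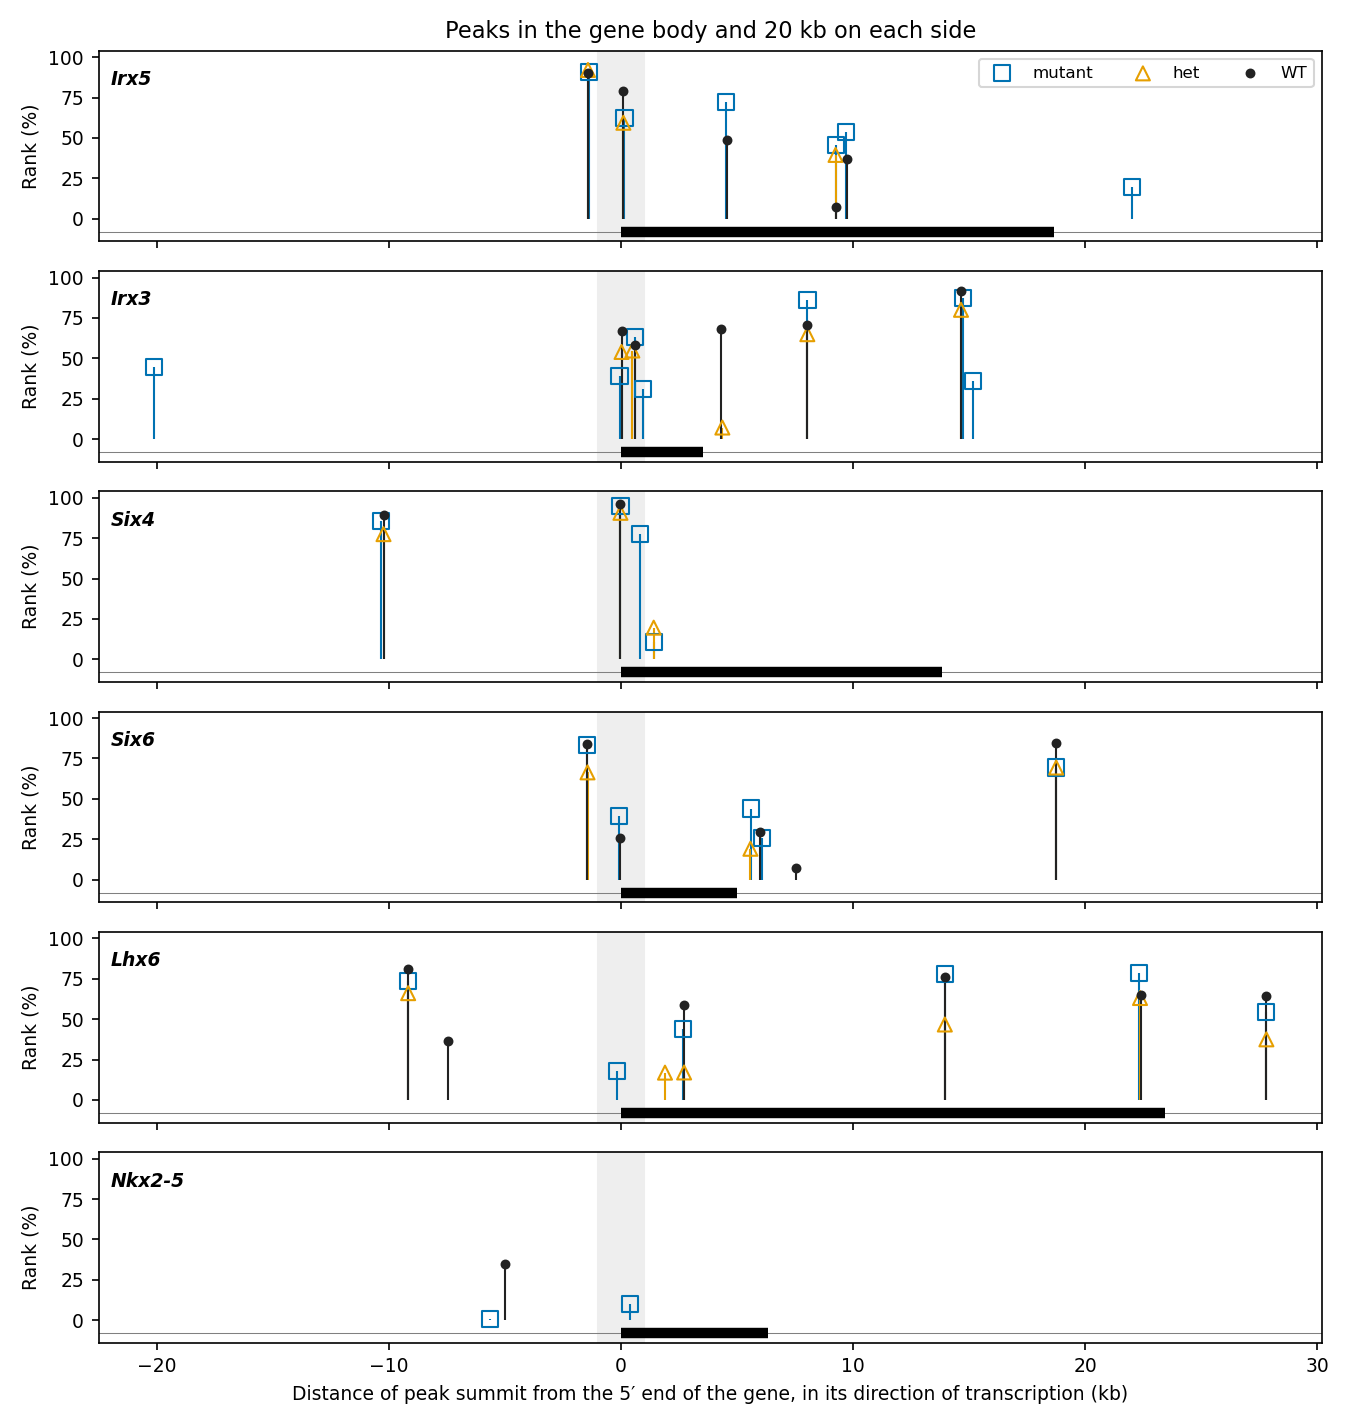
Peaks of 6 members by the distance of their summit from the 5′ end of the gene (x axis, kb, in the direction of transcription) and their within-list rank (y axis, percent) in WT (dots), het (triangles) and mutant (squares). The black bar is the gene body and the grey band 1 kb around the 5′ end (other annotated starts are not shaded), and the maps show the Irx5 site just outside that band, the distal Irx3 and Six6 sites, and the near-empty Nkx2-5 window.

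A promoter peak in only 1 of WT and mutant was seen at 6 members, and none of these peaks ranked above 43.2. Irx4, a factor of the heart ventricle, had a WT peak of rank 0.5 with a pileup of 12 tags and none in het or mutant. Nkx2-3, of the gut and spleen, had peaks of rank 7.75 in WT and 6.49 in het and none in mutant. These were 2 of the 31 members open in WT, against a background of 1.77% of open genes. The strongest other site of Irx4 lay 3.85 kb into the gene and ranked 45.5 in WT and 57.7 in mutant, and that of Nkx2-3 lay 18.7 kb downstream and ranked 71.5 and 73.8. These distal sites were present in all 3 lists.

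The other direction held 4 of the 33 members open in mutant, against a background of 2.94%. Dlx4, of the placenta and branchial arches, had a mutant promoter peak of rank 43.2 and none in WT or het. Lhx6, of forebrain interneurons, had a mutant peak of rank 17.9 and a het peak of rank 16.9 at another of its starts. Nkx2-5 had a mutant peak of rank 10.3 with a pileup of 9 tags. Nkx2-9, of the ventral neural tube, had peaks of rank 28.7 in mutant and 40.1 in het. The mutant list is longer than the WT list, and with lists of equal length the promoter counts were 25 in WT and 26 in mutant. Around Lhx6 and Dlx4 the best WT site had a mutant peak. The best Lhx6 site, 9.18 kb upstream, ranked 81.2 in WT and 73.8 in mutant, and the best site shared by the Dlx3 and Dlx4 windows ranked 82.3 and 79.4. The best Nkx2-9 site in WT lay 6.30 kb upstream at a rank of 55.6 and had no mutant peak, and neither had the single WT site of Nkx2-5.

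Where both lists had matching promoter peaks, the median difference was close to 0. Over 28 members the median log2 ratio of mutant over WT was −0.00 (95% interval over genes −0.09 to 0.10), against 0.05 over 14215 promoters of all genes, and 14 were lower and 14 higher. None of the 28 passed 2-fold, against a background of 0.00703% lower and 0.113% higher. The lowest was Lhx5, a Purkinje cell factor, with a log2 ratio of −0.52 and no het promoter peak. Its scaled pileup was 0.337 in WT and 0.235 in mutant. These values rest on pileups of 17 and 12 tags, and the ratio lay among the lowest 0.95% of all genes. Next was Irx3 with a log2 ratio of −0.49, among the lowest 1.15%. The Irx3 start-site peak, with a WT pileup of 32 tags, ranked 66.8 in WT and its matched mutant peak 39.2. Another mutant promoter peak ranked 63.1 and matched a separate WT promoter peak of rank 58.0, at a log2 ratio of 0.08. The highest was Dlx5, a forebrain and craniofacial factor, with a log2 ratio of 0.40. Its rank was 62.3 in mutant, against 38.9 in WT and 30.0 in het.

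The windows of the members held 204 WT, 151 het and 241 mutant peaks over 1.79 Mb in 34 merged regions. This was 11.4, 8.45 and 13.5 peaks per 100 kb, against 7.21, 5.22 and 8.26 over the windows of all genes. The latter merged into 5159 regions over 1350 Mb and were not matched to the members for gene length. The median member had 6 peaks in WT, from 1 in Nkx2-5 to 13 in Lhx4 and Lhx9, against a median of 5 for all genes. By summit, 58 of the 204 WT peaks lay at a member promoter (28.4%), 48 in a member body, 91 in the flanks and 7 at the start of another gene. Those 7 had a median rank of 89.2, against 42.8 at the members' own promoters, and none of the 7 lacked a mutant peak. The strongest was the Dmwd start in the Six5 window, with a rank of 99.3, followed by the 2310009B15Rik start in the Lhx9 window at 97.0. The start of Aatf near Lhx1 followed at 91.5.

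Loss and gain of peaks around the members were near the background. A mutant partner was missing for 47 of the 204 WT peaks (23.0%, 17.8 to 29.3%), against 23.0% of all WT peaks. A WT partner was missing for 67 of the 241 mutant peaks (27.8%, 22.5 to 33.8%), against 30.8% of all mutant peaks. In all 3 lists 124 of the WT peaks were found (60.8%, 53.9 to 67.2%), against 60% of all WT peaks. Against het, 72 of the 204 WT peaks had no partner (35.3%, background 37.0%) and 88 of the 241 mutant peaks had none (36.5%, background 41.4%). A WT partner was missing for 25 of the 151 het peaks (16.6%, background 13.3%) and a mutant partner for 17 (11.3%, background 10.7%). The 47 unshared WT peaks were weak. Their median −log10 q was 3.03, and that of all 204 was 6.06.

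Among the strong peaks, 63 in WT and 77 in mutant whose −log10 q reached 10, 1 in each list was unshared. The background was 0.448% of such peaks in WT and 1.20% in mutant, and a count of 1 is too small to be set apart from it. In WT this was chr8:91797679-91797795, 4.17 kb downstream of the Irx3 start, with a −log10 q of 11.8 and a pileup of 32 tags. It had a het peak of rank 7.10 and no mutant peak. In mutant it was chr8:23158707-23158868 in the body of Nkx6-3, with a −log10 q of 10.1 and a pileup of 21 tags, with a het peak of rank 23.9 at the same place.

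The 157 WT peaks with a mutant partner had a median log2 ratio of 0.06 (−0.02 to 0.11), against 0.08 over all 115262 shared peaks. None was 2-fold lower in mutant, against a background of 0.406%, and 2 were 2-fold higher, against 1.30%. Those 2 were weak in WT, a Nkx2-4 start-site peak with a WT pileup of 12 tags and a Lhx8 flank peak with 13 tags, each at a log2 ratio of 1.04. The Nkx2-4 ratio compares separate summits, 23 bp upstream of the start in WT and 378 bp downstream in mutant. The same mutant peak was the partner of the stronger Nkx2-4 promoter peak, at a log2 ratio of 0.17. By family, the medians ran from −0.02 for Lhx and Nkx6 to 0.18 for Six-family genes, and the interval of every family covered the median of all shared peaks.

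**Figure D3:**
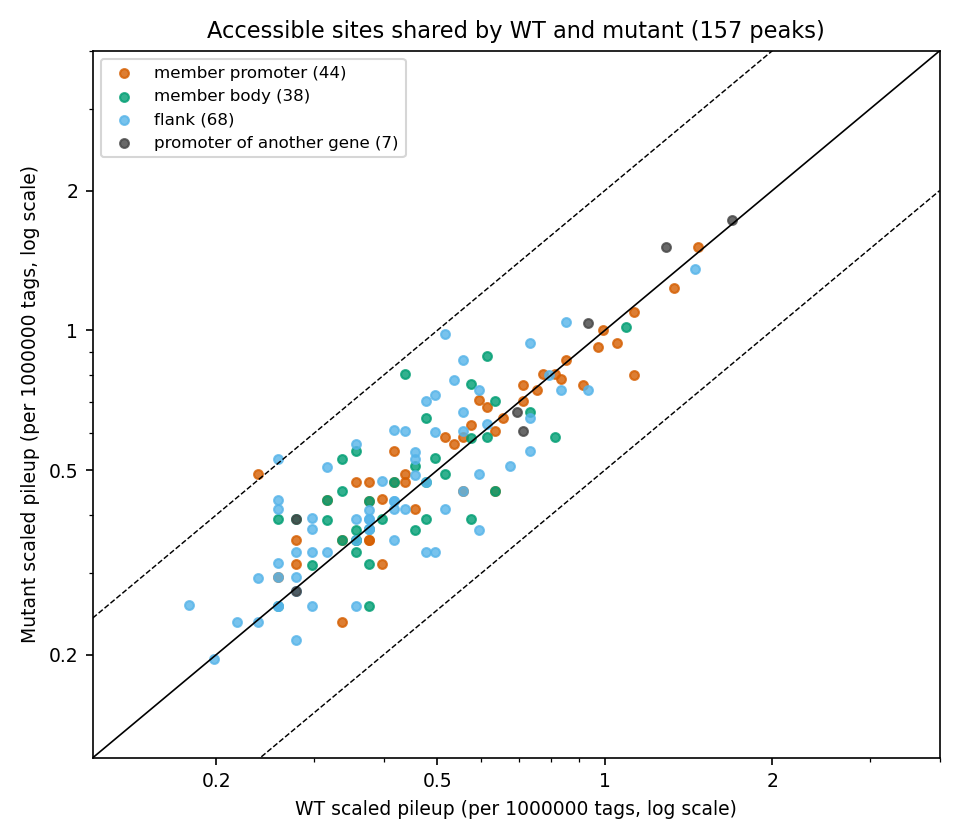
Scaled pileup (per 1000000 tags) in WT (x axis) and mutant (y axis), both on log scales, of the 157 WT peaks in member windows that have a mutant partner, coloured by the location of the summit, with the line of equality and dashed lines at 2-fold. Points scatter about the line of equality, 2 weak peaks lie just past the upper 2-fold line, and none lies past the lower one.

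A few strong sites outside the promoter windows are shown here for their sequence, 75 bases on each side of the WT summit in mm10. They were chosen after their values were seen: the Irx3 site as the strongest with its summit over 1 kb from any coding start, the Lhx4 site as the strongest inside a member's body, and the Six6 site for the lowest ratio of all 157 shared peaks. Matches to CAGATG on either strand, an E-box of the kind bound by neuronal bHLH factors, are in capitals.
Irx3 downstream site, chr8:91787323-91787473, plus strand: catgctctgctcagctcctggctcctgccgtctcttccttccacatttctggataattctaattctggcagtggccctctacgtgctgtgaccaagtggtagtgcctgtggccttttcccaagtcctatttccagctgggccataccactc
Lhx4 intronic site, chr1:155704278-155704428, plus strand: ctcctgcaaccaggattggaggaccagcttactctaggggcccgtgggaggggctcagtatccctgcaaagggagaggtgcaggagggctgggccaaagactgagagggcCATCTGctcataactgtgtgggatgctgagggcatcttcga
Six6 downstream site, chr12:72958577-72958727, plus strand: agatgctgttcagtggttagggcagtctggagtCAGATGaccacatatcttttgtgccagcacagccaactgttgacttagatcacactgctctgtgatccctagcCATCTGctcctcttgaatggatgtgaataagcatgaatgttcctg
The Irx3 site lay 14.5 kb downstream of the start, between genes. It ranked 91.8 in the WT list, 80 in het and 87.3 in mutant, and its log2 ratio of mutant over WT was −0.32. The Lhx4 site lay in an intron, 37.7 kb downstream of the nearest annotated start of the gene, whose product acts in the pituitary and in motor neurons. It ranked 88.4 in WT, 69.5 in het and 80.1 in mutant, with a log2 ratio of −0.47. The Six6 site lay 18.8 kb downstream inside the non-coding gene Gm26709 and held 2 matches to CAGATG, while the Lhx4 site held 1 and the Irx3 site 0. It ranked 84.6 in WT, 69.4 in het and 69.4 in mutant, with a scaled pileup of 0.595 in WT and 0.372 in mutant, a log2 ratio of −0.68. Other members had distal sites with the opposite sign, such as the Irx2 site 7.20 kb downstream, which ranked 67.1 in WT and 83.9 in mutant with a log2 ratio of 0.55, and the Irx3 site 7.85 kb downstream, at 70.9 and 86.1 with 0.55.

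Motifs were counted within 150 bases of the summit at the 139 WT peaks of the member windows that lay over 1 kb from a coding start, on both strands, and set beside all 131154 such autosomal peaks. CAGATG was present at 28.1% (21.3 to 36.0%), against 37.7%. TTGGCA, the core of the nuclear factor I site, was present at 15.1% (10.1 to 22%), against 29.4%. The homeodomain core TAATTA was present at 4.32% (1.99 to 9.10%), against 8.31%, and ACANNTGT at 10.1% (6.09 to 16.2%), against 12%. The median GC content of these member peaks was 54.8%, against 49.2%, and its part in the motif shares was not tested. A match is a string of letters and not a bound site.

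Set beside other gene lists, the members stood between the Hox genes and the factors of the granule lineage in promoter rank. Of 39 Hox genes, 19 were open in WT (48.7%, 33.9 to 63.8%) with a median rank of 44.6, a median fold enrichment of 4.65 and none at a rank of 90 or more. All 19 autosomal granule lineage factors were open, with a median rank of 84.5, from 72.8 to 98.1, and 4 of the 19 (21.1%) reached a rank of 90. Their median fold enrichment of 5.42 was near the 4.84 of the members, but their median scaled pileup was 1.25, against 0.615. The implied local background was also higher, at 0.216 against 0.100. Ranked by pileup, 15 of the 19 (78.9%) reached 90, against 22.6% of the open members. Other lineage homeobox factors were close to the members, with 44 of 60 open, a median rank of 58.1 and 11.4% of the open ones at 90 or more. The partner cofactors that work with LIM and Six-family proteins or as corepressors, from the Ldb, Lmo, Eya, Dach and Tle families, were open at 13 of 15 with a median rank of 88.6. The lists were not chosen at random, and no test was run between them.

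**Figure D4:**
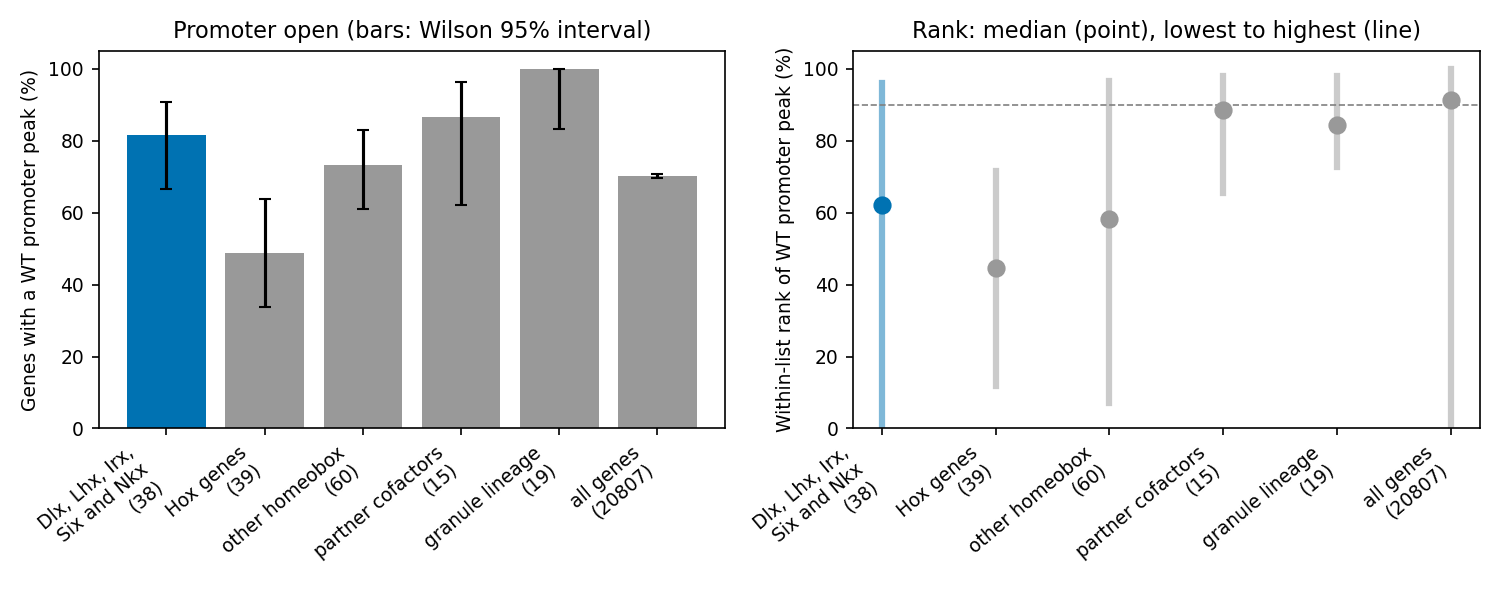
Left, the percentage of genes with a WT promoter peak, with Wilson 95% intervals as error bars; right, the median (point) and the range (line) of the within-list rank in percent of the WT promoter peaks, for the 38 members, Hox genes, other homeobox factors, partner cofactors, granule lineage factors and all genes, with the number of genes in brackets. The members are open at 81.6% with a median rank of 62.0, and all genes at 70.2% with a median of 91.2.

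Genes that mark other cerebellar cells were also often open in WT, beside a background of 70.2% of all genes. An open promoter in these lists therefore does not by itself mark a granule lineage gene. Purkinje cell markers were open at 7 of 8 with a median rank of 93.1, unipolar brush cell markers at 5 of 5 with 77.7, and inhibitory interneuron markers at 7 of 8 with 65.9. Astrocyte and Bergmann glia markers were open at 7 of 8 with a median rank of 73.0 and oligodendrocyte lineage markers at 5 of 7 with 74.5. Endothelial markers were open at 6 of 8 with 63.3, and microglia markers at 3 of 8 with 43.2. How far other cells in the isolate add to the members' peaks was not tested.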

How the data were processed

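Peak lists of GNP ATAC-seq libraries were analysed for WT (3 libraries), het (2 libraries) and mutant (3 libraries) mice at postnatal day 7. Per the labels and file headers, the authors aligned reads to mm10 and called narrow peaks on pooled libraries with MACS2 2.1.0.20150731 at a q-value cutoff of 0.05. STAR 2.5.0b alignments without a shift were used for WT and mutant, and Bowtie 1.0.0 alignments, shifted by -100 bp and extended to 200 bp, for het. The study's methods give the Bowtie mapping and the shift for ATAC-seq without setting any genotype apart. The WT and mutant headers differ from that, and the headers were followed here. The pileup was scaled to 1000000 tags after filtering. The authors deposited the pileup signal at each summit (extended tags, not scaled to depth), the fold enrichment, a ratio of pileup to local background, and −log10 q-values. Deposited −log10 p-values were not used. All pooled columns were mapped to a group (0 left over).

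Members and gene lists were chosen with earlier results of these data known. Genes came from GENCODE M21. A peak belonged to a member when it overlapped the gene body or 20 kb on each side by at least 1 bp, and was counted once. Promoter peaks overlapped 1 kb on either side of a protein-coding start, and the strongest by −log10 q was taken. In the text, distances of sites run from the summit to the nearest annotated protein-coding start of the member, which can lie inside the gene. Shared peaks overlapped by at least 1 bp, and the strongest overlapping peak was the partner. A change was called at 2-fold. Members were described in full when their WT promoter rank reached 90, when the promoter peak was in only 1 of WT and mutant, or when the window was empty, and further members named were chosen after their values were seen. Values of 2 members are not reported here, while the counts and medians over all 38 include them. The other lists were Hox genes by symbol, lineage homeobox factors of other families, partner cofactors, granule lineage factors and markers of Purkinje cells, inhibitory interneurons, unipolar brush cells, astrocytes and Bergmann glia, oligodendrocytes, microglia and endothelium. Shares have Wilson 95% intervals and medians order-statistic intervals, which cover counting over genes or peaks only, not libraries or mice. The overlap steps were tested on simulated data. Calculations used python 3.11.15, numpy 2.4.6, pandas 2.3.3 and pysam 0.24.0.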

Additional observations from a re-analysis of the deposited data

How the results depend on the processing

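No paired analysis was possible because each list was called on pooled libraries, and leaving out each replicate was not possible for the same reason. Of 73 recomputed values, 53 stayed within the interval of the reported value or within 1.5 times of a reported count. The number of members with an open promoter was within 1.5 times of the reported count under every setting run, but it fell in WT and mutant when weak peaks were left out. At a −log10 q of 5 or more it was 24 in WT, 26 in het and 26 in mutant. With lists of equal length it was 25, 29 and 26. The share of all genes was not recomputed at these settings, so the comparison of open shares with all genes was not tested there. At a −log10 q of 5 or more, 117 WT and 146 mutant peaks were left in member windows, 1 member (Nkx2-5) had no peak in WT and in mutant, and 9.40% of WT peaks lacked a mutant peak, against 13.7% of all such peaks. With lists cut to 104396 peaks each, 135 WT and 144 mutant peaks were left, 1 member (Nkx2-5) had no mutant peak, and 20.1% of mutant peaks lacked a WT peak, against 18.7% of all. Flanks of 50 kb gave 327 WT, 246 het and 386 mutant peaks and left 0 members without a het peak. A reciprocal overlap of 50% raised the unshared shares to 41.7% of WT and 50.6% of mutant peaks (36.1% and 43.9% of all), and a distance of 300 bp lowered them to 17.6% and 22% (19.5% and 26.5% of all). Centred on all shared peaks, the median log2 ratio was −0.019. Ranked by pileup, 7 WT and 6 mutant promoters reached 90, a setting added after the data were seen, as was the one by summit. Pooling, the 107 bp and 76 bp tags and the depth of the het list limit every comparison between genotypes.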
